A study of Drosophila melanogaster with 6 samples.

Results

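The 10 genes described here encode the voltage-gated potassium channels of the fly: Shawl, Shaw, Sh, Shab, Shal, eag, elk, sei, KCNQ and slo. They were chosen by name from the authors' deposited table, and all 10 were found among its 14862 genes, elk under the spelling Elk. The choice was made with the values of this table known, because Shawl had one of its most negative fold changes. What follows for these genes is therefore a description and not a test of them.

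RNA was sequenced from stage 14 oocytes of *Drosophila melanogaster*, the mature oocytes held in the ovary before they are laid. The 3 GFP control samples came from flies of the genotype labelled GFP control, and the 3 InR-DN samples from the genotype labelled InR-DN. InR is the insulin receptor gene, and InR-DN serves in this study as the means of suppressing insulin signalling. Each sample was a pool of 200 oocytes, and flies of both groups were fed standard food with added yeast paste. The labels name neither the driver of the transgenes, nor the strain, nor the age of the females, and leave out whether separate crosses gave the pools of a group.

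The values are those of a comparison of 2 groups that the authors made with a likelihood ratio test. Its columns are the log2 fold change, the average log2 CPM (counts scaled to the size of each library), the likelihood ratio, and a p-value before and after adjustment. CG34025, with a log2 fold change and likelihood ratio of 0, had an average of 5.70 log2 CPM in the authors' deposited table. Averages given below are therefore not read as levels in the oocytes compared. Single samples have no values in this table, so the spread between replicates, the depth of each library and the overlap of the groups cannot be shown for any gene. Which libraries gave the spread behind the authors' p-values is not stated, and the spread between pools of a group may be technical. Which group was divided by which is not in its header, so a positive or negative sign is not assigned here to either genotype. The title of the table also calls the samples embryos, whereas the labels name oocytes and add the word progeny for the InR-DN samples. Called genes are those with an adjusted p of the authors below 0.05. From the fold change and likelihood ratio of each gene an implied SE was taken, which gives a 95% interval of 1.96 SE on either side.

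Among all 13080 genes with a likelihood ratio above 0, 667 (5.10%) were called by the authors' likelihood ratio test. By that test 1488 had an unadjusted p under 0.05, and 7311 had positive fold changes. Of the markers checked, the 10 oocyte germline genes had average log2 CPM from 3.11 to 10.99 in the authors' deposited table. They included osk and nos, and by the authors' likelihood ratio test 0 were called and 0 had an unadjusted p under 0.05. Eggshell genes of the follicle cells had averages from 7.95 to 12.31, and 0 of 10 were called, or had an unadjusted p under 0.05, in the authors' deposited table. Of 12 neuronal markers, 9 had an average log2 CPM below 0 in the authors' deposited table. The others were well above that, with averages of 7.03 for elav, 6.59 for CadN and 5.90 for Syx1A. By the authors' likelihood ratio test 0 of the 12 were called, and 1, CadN, had an unadjusted p under 0.05. The transmitter genes VAChT, VGlut and Gad1 had a likelihood ratio of 0 in the authors' deposited table. Of 8 muscle markers 0 were called, 3 had an unadjusted p under 0.05 and all 8 had positive fold changes, with a median of 0.51 in the authors' deposited table. The 9 gut markers were all called and positive, at log2 values between 2.29 and 8.55 in the authors' deposited table. Of 6 haemocyte markers 1 was called, Pxn at 1.64, and 3 had an unadjusted p under 0.05 by the authors' likelihood ratio test. Besides Pxn these were Col4a1 at 0.53 and NimC1 at -3.18. With bulk RNA, fewer cells of a type cannot be told apart from less RNA per cell.

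Voltage-gated potassium channels open when the membrane is depolarised and let potassium leave the cell, which returns the membrane towards rest. In neurons and muscle they end the action potential and set how often a cell fires. The fly genes stand for families that are shared with mammals: Shaker, Shab, Shaw and Shal channels are built of subunits of a similar plan, eag, elk and sei form the ether-a-go-go family, KCNQ passes a slow current, and the slo channel also responds to calcium. Their subunits assemble in fours around a single pore. In the fly egg, maternal KCNQ is known to be needed for early development of the embryo, and calcium enters through the channel Trpm when the egg is activated.

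Of the 10 channel genes, 2 were called in the authors' deposited table, Shawl with a negative and slo with a positive fold change. Among all 13080 tested genes, those with a likelihood ratio above 0, called genes made up 5.10%, with 2.61% positive and 2.48% negative. The share was 6.97% for genes with an average log2 CPM below 0 and 4.14% for those with a higher one. Nothing is read from the count of channel genes against this share, since the same comparison chose them. The median log2 fold change of the 10 was 0.04, beside 0.03 for all tested genes, and 5 of them were positive and 5 negative in the authors' deposited table. The size of the Shawl value was thus not shared by the other 9 genes, whose log2 fold changes lay between -0.27 and 1.81.

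**Figure D1:**
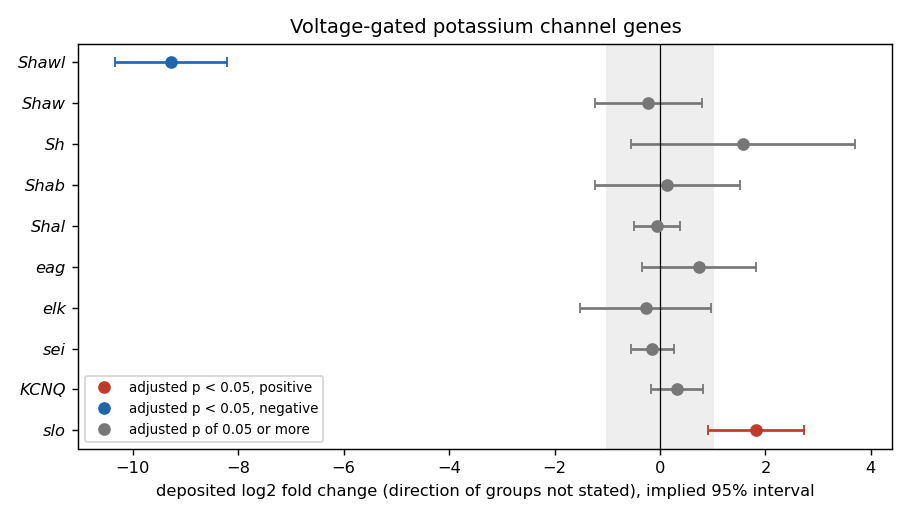
The 10 potassium channel genes by family, with the deposited log2 fold change on the horizontal axis and the implied 95% interval as bars. Shawl stands at -9.27, slo at 1.81 is the other called gene, and the grey band marks a change of less than 2-fold in either direction, within which the intervals of Shal, sei and KCNQ lie.

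Shawl encodes a channel subunit of the Shaw family and is named for its likeness to Shaw. Its log2 fold change in the authors' deposited table was -9.27 (implied SE 0.54, interval -10.33 to -8.22), a likelihood ratio of 297.7 and an adjusted p of 1.7e-63. Its average log2 CPM was 1.28 in the authors' deposited table, or 2.43 CPM, which does not give the number of oocyte reads behind the fold change. By fold change it was the 5th most negative of all genes in the table, and by likelihood ratio it ranked 9 in either direction. The genes with a lower log2 fold change in the authors' deposited table, named after their values were seen, were CG42704 at -11.88, CG43090 at -11.08, Drs at -10.61 and CG42705 at -10.28. Drs encodes the antifungal peptide Drosomycin.

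Among the 513 other tested genes whose average log2 CPM lay within 0.5 of that of Shawl, 13.3% were called in the authors' deposited table, and 3 had a fold change at least as large in either direction. Genes matched by average, here and below, need not have like numbers of oocyte reads. CG43090 had nearly the same average as Shawl, 1.26 against 1.28 log2 CPM, and a lower log2 fold change in the authors' deposited table, -11.08 against -9.27. Whether the lower group held any Shawl reads cannot be read from the table, so the fold change is a fitted value and not a bound. The implied SE does not measure its precision if that group held few reads. Which of the samples carried the Shawl reads, and whether all 3 of a group did, is likewise not shown.

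**Figure D2:**
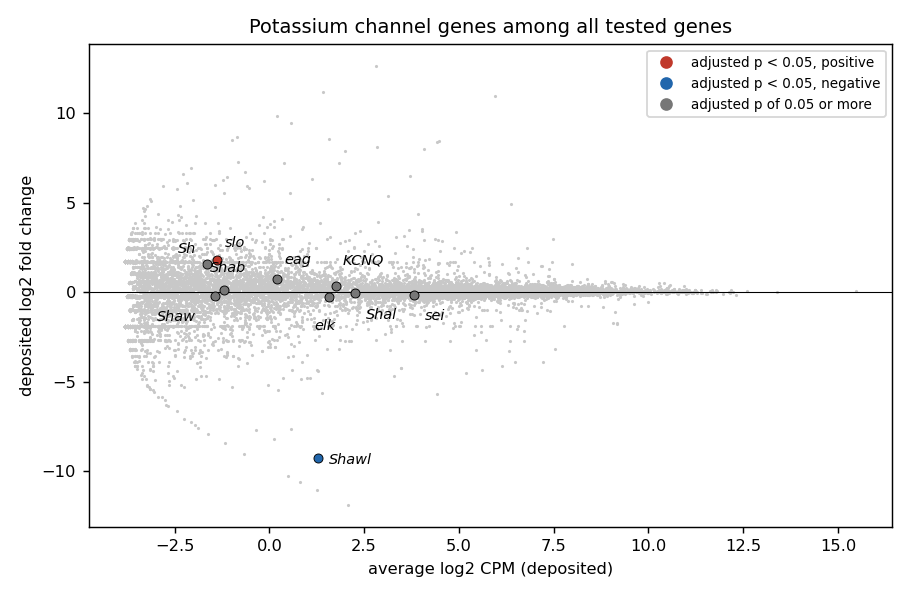
Deposited log2 fold change against average log2 CPM for all tested genes (grey) and the 10 potassium channel genes (large points). Shawl lies far below the band of genes with a similar average, while the other 9 genes lie within it.

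Shaw, the other gene of its family, encodes a channel that is open over a wide range of voltages in flies. In the authors' deposited table its log2 fold change was -0.22 (implied SE 0.52), with an adjusted p of 1, and its interval from -1.23 to 0.79 did not exclude a 2-fold change of negative sign. The intervals of Shaw and Shawl did not overlap, which is given as a description, since Shawl was chosen for its value. Average log2 CPM was -1.44 for Shaw in the authors' deposited table.

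Sh, Shab and Shal encode the founding members of the other families of this plan. Sh, the Shaker channel of fast inactivating A-type current, was at 1.58 on the log2 scale in the authors' deposited table (implied SE 1.09, adjusted p = 0.84). Its average was -1.65 log2 CPM, and its interval from -0.55 to 3.71 was the widest of the 10 in the authors' deposited table. Shab, which carries a delayed rectifier current, was at 0.14 (implied SE 0.70, adjusted p = 1) with an average of -1.20 log2 CPM in the authors' deposited table. For Sh and Shab, a change of 2-fold was within the interval and could not be told from none.

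Shal, which carries A-type current in nerve cell bodies, was measured more closely. Its log2 fold change in the authors' deposited table was -0.06 (implied SE 0.22, adjusted p = 1) at an average of 2.27 log2 CPM, and the interval from -0.50 to 0.38 excluded a 2-fold change in each direction.

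The ether-a-go-go family had no called gene by the authors' likelihood ratio test, and none of its genes reached an unadjusted p of 0.05 either. The authors' deposited table listed sei, the gene of temperature-sensitive seizure mutants, at -0.15 (implied SE 0.21, adjusted p = 1) and an average of 3.81 log2 CPM. The interval of sei, from -0.55 to 0.26, was the narrowest of the 10. The founding gene, eag, was at 0.74 (implied SE 0.55, adjusted p = 0.93) and elk at -0.27 (implied SE 0.64, adjusted p = 1) in the authors' deposited table. The averages of eag and elk were 0.20 and 1.58 log2 CPM in the authors' deposited table. Among genes with an average within 0.5 of that of elk, the median implied SE was 0.34, beside 0.64 for elk.

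KCNQ, the gene with a known maternal role, was at 0.32 on the log2 scale in the authors' deposited table (implied SE 0.25, adjusted p = 0.93). Its average was 1.75 log2 CPM, and its interval from -0.18 to 0.82, taken from the authors' deposited table, also excluded a 2-fold change each way.

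The slo gene, which encodes the large-conductance channel opened by calcium and by voltage together, was called in the authors' deposited table at 1.81 on the log2 scale (implied SE 0.46, interval 0.90 to 2.72, adjusted p = 0.0033). Its average was low, at -1.37 log2 CPM or 0.39 CPM in the authors' deposited table. Among 824 other genes with an average within 0.5 of that of slo, 11.7% were called and 140 had a fold change at least as large. The call of slo did not hold under a Bonferroni adjustment, where its p was 1. The gut markers were called with the same sign as slo, the muscle markers had a median of 0.51 without a call, and the part of either tissue in the slo value was not tested.

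The locus of Shawl was examined because other genes lie inside it. In the Ensembl annotation of the BDGP6 assembly, Shawl is on chromosome arm 2L and contains Aldh, on the opposite strand and with no exon in common, as well as CG4438 and an antisense RNA, CR43865. The sources used here do not give the authors' build, so genes are placed by order and no coordinates are printed. Aldh encodes a mitochondrial aldehyde dehydrogenase. Against the negative value of Shawl, the authors' deposited table listed Aldh as called at 1.45 (implied SE 0.19, adjusted p = 6.4e-12) at an average of 7.20 log2 CPM. CG4438 and CR43865 had a likelihood ratio of 0 in the authors' deposited table. The library kit keeps strand, per the labels' protocols, but the sources used here do not say whether counting used strand.

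The 10 genes of the table on either side of Shawl, a window chosen after these values were seen, held 17 tested genes, of which 3 were called, where 5.10% of all tested genes were. Since the window was set with these calls known, nothing is read from the count. In the authors' deposited table Ggamma30A, the G protein gamma subunit of photoreceptors, was at -4.85 (implied SE 0.86, adjusted p = 1.1e-06) with an average of -1.31 log2 CPM. Cks30A, whose protein binds cyclin-dependent kinase and acts in female meiosis, was at 1.44 (implied SE 0.43, adjusted p = 0.022) in the authors' deposited table, and Aldh was the third. Ggamma30A and Cks30A were separated from Shawl by Eaat1, a glutamate transporter gene, which was at -0.29 (implied SE 0.24, adjusted p = 0.93) in the authors' deposited table. On the other side Mco1, the next gene after those inside Shawl, was at -0.57 (implied SE 0.22, adjusted p = 0.16) in the authors' deposited table. Called genes thus stood beside others that were not, and in both directions.

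**Figure D3:**
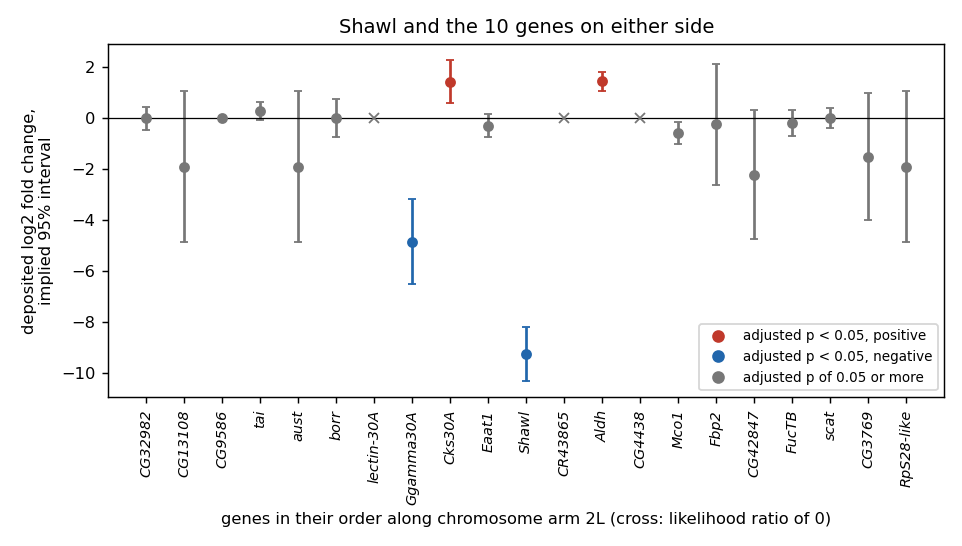
Deposited log2 fold changes, with implied 95% intervals where one exists, of Shawl and the 10 genes on either side in their order along chromosome arm 2L. Shawl at -9.27 and Ggamma30A at -4.85 are the called negative genes, Cks30A at 1.44 and Aldh at 1.45 the called positive ones.

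The same windows around the other 9 channel genes held between 0 and 3 called genes each, beside the same 5.10% of all tested genes. Around Shaw, also on 2L, 3 of 18 tested genes were called, and around slo 0 of 20 were, of which 0 had an unadjusted p under 0.05. Of genes that overlap a channel gene, CG6867 lies inside Sh on the opposite strand and was called at -3.56 (implied SE 0.76, adjusted p = 0.00013) in the authors' deposited table, against 1.58 for Sh. The sodium channel family gene ppk29 overlaps sei in exons on the opposite strand, an arrangement in which its RNA is known to regulate sei in neurons. It was called at 0.74 (implied SE 0.22, adjusted p = 0.023) in the authors' deposited table, against -0.15 for sei. Reads in the stretch shared by ppk29 and sei can be told apart only if counting used strand. KCNQ shares exons on the opposite strand with CG18011, at -0.03 in the authors' deposited table (adjusted p = 1).

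Other potassium channels gave 1 called gene of 16, where 5.10% of all tested genes were called. Irk2, an inward rectifier, which passes potassium most easily into the cell, was at -1.13 (implied SE 0.36, adjusted p = 0.041) in the authors' deposited table, at an average of -1.38 log2 CPM. The list median was 0.24, and 9 genes were positive and 7 negative, beside 7311 and 5769 of all tested genes. By the authors' likelihood ratio test 5 had an unadjusted p under 0.05, beside 1488 of all 13080 tested genes. Ork1, a two-pore leak channel that holds the resting potential, was at -0.05 (implied SE 0.20, adjusted p = 1) in the authors' deposited table. Calcium-activated channels other than slo were not called: SK, of small conductance, was at 1.08 (implied SE 0.39, adjusted p = 0.10) and SLO2, a relative of slo, at 0.38 (implied SE 0.22, adjusted p = 0.64) in the authors' deposited table.

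Of 5 genes for partner proteins of these channels 0 were called by the authors' likelihood ratio test, beside 5.10% of all tested genes. By the same test 0 had an unadjusted p under 0.05, beside 1488 of all 13080 tested genes, and the list median was 0.13. Slob, which binds the slo channel, had the smallest p of them and was at 2.95 (implied SE 1.56, adjusted p = 0.56) in the authors' deposited table, at an average of -3.12 log2 CPM. Hk, the beta subunit of the Shaker channel, was at 0.42 (implied SE 0.26, adjusted p = 0.75) in the authors' deposited table.

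Among 19 other voltage-gated and related cation channels, 2 positive genes and 1 negative gene were called, where 5.10% of all tested genes were. The list median was 0.17. The positive genes were cac, the pore of the calcium channel for transmitter release, at 0.68 (implied SE 0.22, adjusted p = 0.041), and Ca-beta, the intracellular beta subunit of calcium channels, at 1.25 (implied SE 0.26, adjusted p = 5.5e-05) in the authors' deposited table. The negative gene was stol, an outer subunit of calcium channels, listed as CG4587, at -1.41 (implied SE 0.30, adjusted p = 9.9e-05) in the authors' deposited table. Other calcium channel genes of the list were not called: Ca-alpha1D was at 0.24 (adjusted p = 1), Ca-alpha1T at -0.46 (adjusted p = 0.93) and stj at -0.04 (adjusted p = 1) in the authors' deposited table. The sodium channel gene para was at -2.21 (implied SE 0.95, adjusted p = 0.26) in the authors' deposited table.

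Genes of calcium entry and release had no call by the authors' likelihood ratio test among 6 tested, beside 5.10% of all tested genes. By the same test 1 had an unadjusted p under 0.05, beside 1488 of all 13080 tested genes, and the list median was 0.16. The 1 gene was RyR, the ryanodine receptor, at 0.92 (implied SE 0.47, adjusted p = 0.48) in the authors' deposited table. Trpm, the channel of egg activation, was at 0.20 (implied SE 0.20, adjusted p = 1), and Itpr, which releases calcium from internal stores, at 0.28 (implied SE 0.19, adjusted p = 0.83) in the authors' deposited table. For 5 of the 6 the interval excluded a 2-fold change each way.

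**Figure D4:**
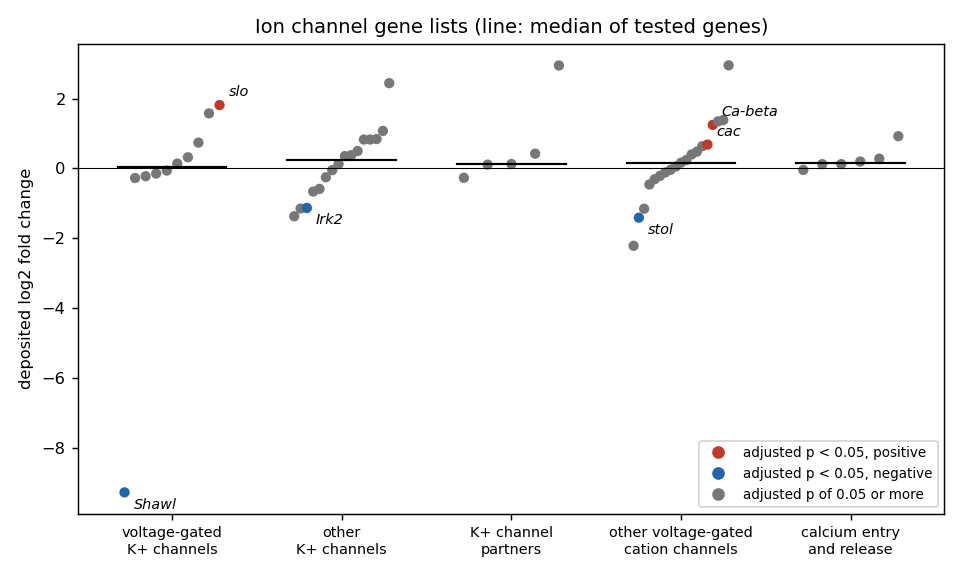
Deposited log2 fold changes of the tested genes in 5 lists of ion channel genes, sorted within each list, with the list median as a line. The medians lie between 0.04 and 0.24, the called genes are named, and Shawl at -9.27 is the lowest value.

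No pattern across samples or conditions could be matched to that of Shawl, since the table holds a single comparison. Average log2 CPM is not corrected for transcript length, and which libraries enter it is not stated. In the authors' deposited table CG34025, CR44676 and CR44531 had a likelihood ratio of 0 at averages of 5.70, 1.42 and 0.33 log2 CPM. The average was thus not a measure of the compared oocyte samples alone, and the levels of the channel genes were not ranked against each other.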

How the data were processed

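Reads from 6 samples were handled by the authors with FastQC, Bowtie and TopHat, per the submitters' processing notes, which give no versions. Genome build and counting tool: not given in the sources used here. Per the labels, the RNA was polyA selected, while the protocol names a total RNA kit. The deposited table holds, per the file headers, log2 fold changes and average log2 CPM, likelihood ratio scores, p-values and adjusted p-values by the authors. Its title names a likelihood ratio test of a generalised linear model. A count test had been planned for a table of counts and was not needed.

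The deposited adjusted p differed from a Benjamini-Hochberg adjustment over 14862 genes by at most 3.6e-15. The implied SE is the size of the fold change divided by the square root of the likelihood ratio, where that was above 0.0001. The Benjamini-Hochberg adjustment was tested on simulated data. Alternatives were a threshold of 0.01, adjustment over tested genes, filters on average log2 CPM and Bonferroni adjustment. The depth per sample is unknown.

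The channel genes and all lists were chosen with earlier results of these data known. Named were all 10 channel genes, the called gene or genes of each other list or else that with the smallest p, genes overlapping or adjoining Shawl, and others for their role. Of the genes in all lists, 10 were found under another name in the RefSeq gene table (assembly Release 6 plus ISO1 MT). Neighbours were taken in the order of that table, in which 14743 genes of the deposited table were placed. Tables were handled with pandas 2.3.3 and adjusted with scipy 1.17.1 in Python 3.11.15, and figures were drawn with matplotlib 3.10.9.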

Additional observations from a re-analysis of the deposited data

How the results depend on the processing

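The alternatives adjust or filter the same deposited p-values and leave fold changes as deposited, so they could not change a direction and are no check of the Shawl value, for which the gene was chosen. Its adjusted p ran from 9.3e-64 to 1.5e-62, and its log2 fold change was -9.31 after the median of all tested genes was taken off. Called channel genes of the 10 numbered 2 at a threshold of 0.01 and with adjustment over tested genes, and 1, Shawl, under Bonferroni adjustment and with averages below 0 or below 1 log2 CPM left out, filters that removed slo from the test. The other 4 channel lists held 4 called genes of 47, against 2 at a threshold of 0.01 and 2 under Bonferroni adjustment. With averages below 0 left out 2 of 28 were called, and with averages below 1 left out 1 of 23. These filters removed Irk2 and stol from the test. Over all 14862 genes, 667 were called, and 294 under Bonferroni adjustment. With averages below 0 left out 344 of 8732 were called, and with averages below 1 left out 220 of 8092. The call of cac, with an adjusted p of 0.041, was lost at a threshold of 0.01, under Bonferroni adjustment and, at 0.061, with averages below 1 left out. Irk2 was lost at a threshold of 0.01 and under Bonferroni adjustment. A gene below a filter has no value under it. Leaving out replicates and count-based alternatives were not run, since they need values of single samples. No paired analysis was possible because only a comparison of group with group was analysed.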
